A study of Homo sapiens with 30 samples.

Results

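Divergent transcripts, whose gene names end in -DT, are noncoding RNAs that start close to the promoter of a protein-coding gene and run away from it on the other strand. Each is named after that gene, called its partner here. The set described comprised the 157 genes named -DT whose raw read counts summed to 560 or more over 28 libraries, all of the study's libraries except the 2 of the Mock group. They were 157 of 598 -DT genes and of 61578 genes in the count tables, and all 157 entered the tests. The threshold is a mean of 20 reads per library. PGLS-DT with 560 reads, WDR11-DT with 568 and MFF-DT with 569 lay just above it, and YPEL3-DT with 559 and MAD2L1-DT with 557 just below. The members were chosen by summed reads, so their levels are given as a description. The change on treatment was not used for the choice, but a strong change can by itself bring a transcript over the threshold: 129 members reached at least 280 reads, an even share of it, in the 14 untreated and also in the 14 treated libraries.

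The study holds 30 poly(A) RNA-seq libraries in 15 groups of 2, all labelled as A549, a human lung adenocarcinoma line. All lines but Mock carried endogenous RPB1, the largest subunit of RNA polymerase II, fused to a degron, a tag through which the compound dTAGV-1 triggers degradation. The degron line had no other RPB1. The other 6 lines also carried an RPB1 complement induced by doxycycline, either wild type (WT) or with 1 position of the heptad repeated in its C-terminal domain replaced: Y1F, S2A, T4V, S5A or S7A. Treated libraries of these 6 lines came from cells given doxycycline at 2 µg/mL for 24 h and then dTAGV-1 at 100 nM for 12 h, and untreated ones from cells given neither. In the degron line treatment was dTAGV-1 at 100 nM for 12 h with no doxycycline. Mock had a WT genotype label and no treatment. Each line had its own untreated libraries, so that no comparison between treated and untreated shares a library with another, while the 5 comparisons of a mutant with WT share the WT libraries. Doxycycline and RPB1 exchange cannot be told apart within a complemented line. Whether both libraries of a group came from separate cultures is not stated, so p-values measure only the spread between these libraries, which may be technical.

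Many mammalian promoters fire in both directions. RNA polymerase II that initiates upstream and antisense to a gene usually terminates early, at poly(A) signals that U1 snRNP does not mask, and the nuclear exosome with its adaptors degrades most of the short product. A part of these transcripts is spliced, polyadenylated and stable enough to be annotated as a gene, and poly(A) RNA-seq records only that part.

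The stretches between the start of the DT transcript and the start of its partner are shown for 3 pairs whose DT transcript rose in most lines and 3 whose DT transcript fell, because these short stretches hold what both transcription units share. They come from RefSeq (GRCh38.p14) and are written 5′ to 3′ on the strand of the DT transcript, ending at its start. Capitals mark every match, on either strand, to TATAAA of the TATA box, CCAAT of the CCAAT box, GGGCGG of the GC box, CGGAAG of ETS factors, TGACGTCA of the cyclic AMP response element, AAGATGGCG of YY1 or GCGCATGC of NRF1. Overlapping matches run together. The first 3 lie at chr7:155297659-155297877 (INSIG1-DT), chr5:51383333-51383447 (ISL1-DT) and chr22:45163782-45163924 (NUP50-DT), and the others at chr2:74833988-74834126 (HK2-DT), chr13:100088944-100089092 (PCCA-DT) and chr4:67701156-67701277 (UBA6-DT). UBA6-DT runs on the plus strand and the other 5 on the minus strand.
INSIG1-DT: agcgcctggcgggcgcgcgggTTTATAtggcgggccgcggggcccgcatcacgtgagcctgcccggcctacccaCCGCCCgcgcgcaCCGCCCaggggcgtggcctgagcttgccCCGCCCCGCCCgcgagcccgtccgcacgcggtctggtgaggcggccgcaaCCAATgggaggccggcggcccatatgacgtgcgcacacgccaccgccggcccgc
ISL1-DT: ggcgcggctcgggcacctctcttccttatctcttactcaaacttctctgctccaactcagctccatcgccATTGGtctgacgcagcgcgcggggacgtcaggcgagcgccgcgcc
NUP50-DT: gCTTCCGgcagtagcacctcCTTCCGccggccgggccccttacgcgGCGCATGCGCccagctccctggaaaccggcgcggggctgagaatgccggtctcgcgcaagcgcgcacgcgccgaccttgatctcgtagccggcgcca
HK2-DT: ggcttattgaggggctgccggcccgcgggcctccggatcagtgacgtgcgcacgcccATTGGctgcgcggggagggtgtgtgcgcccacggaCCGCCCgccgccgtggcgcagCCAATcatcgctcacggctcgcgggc
PCCA-DT: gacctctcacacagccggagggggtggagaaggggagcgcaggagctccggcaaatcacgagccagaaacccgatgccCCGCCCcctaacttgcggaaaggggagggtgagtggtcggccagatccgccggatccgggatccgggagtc
UBA6-DT: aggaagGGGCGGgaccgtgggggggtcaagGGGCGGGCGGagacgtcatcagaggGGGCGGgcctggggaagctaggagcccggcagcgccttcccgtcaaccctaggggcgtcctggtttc

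These 6 stretches were 64.3% to 78.5% G and C. Among the 125 pairs with a RefSeq start for both genes on opposite strands, 82 had 1 to 250 bases between the starts (median 135.5), and those 82 stretches ranged from 49.7% to 89.6% G and C with a median of 71.4%. RefSeq promoter windows of 300 bases, from 250 before to 50 after the start, were found for 132 members. They held a median of 31 CpG dinucleotides, against 14 over all 35116 windows of the table, and 69.0% G and C against 58.7%. GGGCGG, the core of the GC box, was in 75.8% of the 132 windows and in 45% of all windows, and CGGAAG, an ETS core, in 40.2% and 19.5%. TATAAA was in 4.55% of the members' windows and in 11.5% of all. CCAAT was in 33.3% and 34.6%. The windows found for 139 partners had a median of 31 CpG and 68% G and C. Of these, 71.2% held GGGCGG, 43.2% CGGAAG, 7.19% TATAAA and 43.2% CCAAT. In the 82 pairs with 1 to 250 bases between the starts, the windows of the DT transcript and of its partner both hold that stretch. Similar CpG, G and C, GGGCGG and CGGAAG values in members and partners were therefore in large part fixed in advance. They cannot show whether the DT side differs from the partner side. A match is a string of letters in a window, not evidence that a factor binds.

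Library totals were 10866089 to 17912802 reads, and the 157 members took 0.0565% to 0.115% of them. POLR2A, which encodes RPB1, was the gene changed by the design: its read counts sum the endogenous and any induced transcript and do not measure the protein. On the CPM scale (counts divided by library size, with TMM factors here and below) it stood at 278 to 572 in the 14 untreated and 411 to 1760 in the 14 treated libraries of the 7 lines. It rose in WT (log2 change 1.38, SE 0.27, edgeR adjusted p = 0.0034), S7A (1.46), S5A (1.43), S2A (1.11) and Y1F (0.97, the largest edgeR adjusted p of these being 0.0052). Its change missed the threshold in T4V, at 0.56 (SE 0.26, edgeR adjusted p = 0.11), and in the degron line, at 0.55 (SE 0.26, edgeR adjusted p = 0.092). Of the libraries labelled A549, only Mock was high in the list of 13 markers fixed for that line, with a summed 31400 to 31500 CPM. KRT7, KRT8, KRT18, AKR1C1, AKR1C2, AKR1B10, ALDH1A1 and ALDH3A1, at 1600 to 7140 CPM each, made up nearly all of it. In the other 28 libraries the list summed to 78.4 to 183 CPM, and KRT7, AKR1C1, AKR1C2 and AKR1B10 had medians of 0. Of the lung markers on the list, NKX2-1 was lower in Mock, at 0.154 CPM against 1.2 to 10.6, and SFTPB, SFTPC and NAPSA were at 1.64 CPM or less in Mock and 1.68 or less in the other 28. CDKN2A, which is deleted in A549, was at 0 in Mock and at 89.2 to 202 CPM in the other 28. A fixed list of 7 kidney and neuronal markers summed to 879 to 1680 CPM in the untreated and 117 to 992 CPM in the treated libraries of the 7 lines, with IRS4 its most abundant gene. Its part in the changes below was not tested. Mock enters no comparison, but its 2 libraries took part in the gene filter, the TMM factors and the estimate of spread. Genes high only in Mock, such as AKR1B10 (0.0829 CPM or less in the other 28), are therefore among the 19982 genes tested. How far they lower the shares of all genes called was not counted.

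Located in GENCODE release 29 (GRCh38), 154 members all lay on the strand opposite to their partner. The distance between the 2 starts had a median of 88 bases (quartiles -22.2 to 187, negative where the transcripts overlap), and 140 were within 1000 bases. The extremes were EPM2A-DT, 63386 bases from EPM2A, and CHKB-DT, at -18429 bases from CHKB. They depend on the partner start that is annotated: the RefSeq starts put EPM2A-DT at -652 and CHKB-DT at 176 bases. A single exon made up 38 members and 116 had more. Exons of 37 overlapped exons of the partner, and 86 members overlapped no exon of another gene. Coordinates, exons and distances given below are those of GENCODE release 29 unless RefSeq is named, and can differ from the RefSeq stretches above. Whether counting used strand is not stated, so reads from overlapping exons cannot be assigned to one of the 2 genes.

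DT transcripts were low against their partners. In the untreated libraries of the 7 lines the authors' TPM, a share of all transcripts that is scaled for length, had a median of 4.32 over the 157 members and 36.4 over their partners. The median member stood at 13.3% of its partner (quartiles 3.63% to 31.7%). GOLPH3-DT was at 3.39 TPM beside 96.4 for GOLPH3, a phosphoprotein of the Golgi. At the other end, 17 members exceeded their partner, such as BAIAP2-DT at 28 TPM beside 10.4 for BAIAP2, a regulator of membrane protrusions, and RAB30-DT at 8.06 TPM beside 3.39 for RAB30, a Golgi GTPase. ZNF584-DT had the most reads, 11944 in sum. It starts beside the zinc finger gene ZNF584, at -6980 bases in GENCODE release 29 and at 185 bases between the RefSeq starts.

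On treatment DT transcripts rose and fell side by side in every line. In the Y1F line 64 of 157 rose and 20 fell (40.8% and 12.7%), where 23.1% of all 19982 genes tested rose and 21% fell. S5A had 45 risen and 47 fallen members (all genes 25.5% and 24.2%), the degron line 49 and 38 (23.1% and 21.4%), S2A 52 and 25 (17% and 18.2%), S7A 36 and 33 (17.8% and 17.1%) and T4V 31 and 37 (14.8% and 14%). In WT, whose complement has an unchanged repeat, 11 rose and 9 fell (3.09% and 1.84%). The WT calls rest on single libraries: leaving out the second untreated WT library left 0 risen, and leaving out the first untreated one left 0 fallen, with edgeR in both cases. In T4V 18 members rose without the first treated library and 22 fell without the second, and in S7A 20 fell without the first untreated and 21 without the second treated library.

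The median log2 change of the members was 0.35 in Y1F, 0.19 in S2A, 0.11 in S7A, 0.08 in the degron line, 0.03 in WT, 0.01 in S5A and -0.16 in T4V, while that of all genes lay between -0.01 and 0.05. The read threshold bears on these medians: of the 28 members that did not reach 280 reads in both states, 22 reached it only when treated and 6 only when untreated. Over the 129 that did, the median was 0.18 in Y1F, 0.04 in S2A, -0.02 in S7A, -0.03 in the degron line, -0.08 in WT, -0.14 in S5A and -0.25 in T4V, with 44 risen and 18 fallen in Y1F and 34 and 35 in the degron line. The levels depend on the scaling of the libraries. Scaling by 13 mitochondrial mRNAs moved the median of all genes to between -0.70 and -0.17, and the authors' own factors to between -0.92 and -0.19, and the split of risen and fallen members moved with it. With mitochondrial scaling Y1F had 45 risen and 40 fallen, S5A 20 and 86, the degron line 30 and 68, S2A 27 and 57, S7A 26 and 56, T4V 10 and 85, and WT 3 and 16. With the authors' factors the same counts were 27 and 70, 12 and 92, 18 and 84, 23 and 60, 7 and 85, 10 and 66, and 1 and 10. Across these scalings, the distance of the members' median from that of all genes was in Y1F 0.32 with TMM, 0.30 under the authors' factors and 0.31 under mitochondrial scaling, in S2A 0.20 with each, and in T4V -0.19, -0.20 and -0.21. A library factor shifts all genes of a line nearly alike, so this distance hardly can move and its agreement is no check. Directions below are relative to TMM. In these bulk libraries fewer cells and less RNA per cell cannot be told apart.

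Medians of other noncoding genes above the same read threshold are set beside those of the DT set for some lines. In Y1F the 306 antisense genes named -AS1 had a median of 0.24 and the 126 genes named LINC one of 0.08, both above the 0.03 of all genes. In S2A these medians were -0.02 and -0.20 beside 0.19 for the DT set, in T4V -0.06 and -0.11 beside -0.16, and in WT 0.01 and 0.08 beside 0.03. Over the 129 members with 280 reads or more in both states the DT median was 0.18 in Y1F, 0.04 in S2A and -0.25 in T4V. In Y1F that is below the -AS1 median, though the other lists were not restricted in this way. With mitochondrial scaling or the authors' factors the DT medians of S2A and T4V were both negative. No test was made of these differences between lists.

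**Figure D1:**
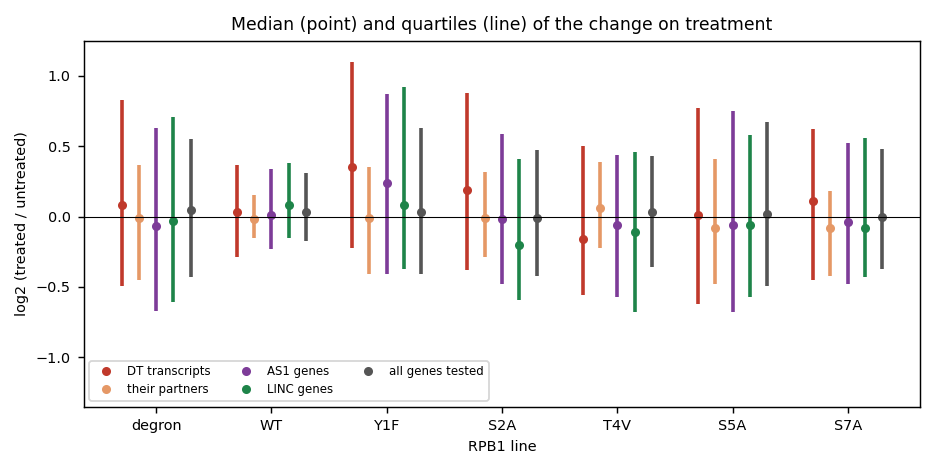
Change on treatment (log2 of treated over untreated, TMM scaling, y axis) in each of the 7 RPB1 lines (x axis) for the 157 DT transcripts, their partners, 306 -AS1 genes, 126 LINC genes and all 19982 genes tested; points are medians over genes and lines run between the quartiles. The DT median is highest in Y1F at 0.35 and lowest in T4V at -0.16; with mitochondrial scaling these become 0.01 and -0.75, and with the authors' factors -0.51 and -0.61.

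The changes were similar from line to line. Between the 21 pairs of lines, Pearson's r of the members' log2 changes was 0.68 to 0.87 with a median of 0.83, over 157 members that share libraries and depth within a line, and for all genes it was 0.59 to 0.80 with a median of 0.71. Of the members, 33 rose in 5 or more of the 7 lines, as did 10.4% of all genes tested, and 16 fell in 5 or more, as did 10.5%. In 6 of the 157 members a rise was called in 1 line and a fall in another, a share near the 2.78% of all genes. No line gave a call for 20 members, among them LHX1-DT, CTTN-DT and CHD1-DT, and for 25.6% of all genes. With mitochondrial scaling 14 members rose in 5 or more lines, all of them among the 33, and 45 fell, including all 16. With the authors' factors the counts were 6 and 56, again within the 33 and including the 16. Both scalings lower the changes of all genes in every line, so this nesting follows from the shift.

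**Figure D2:**
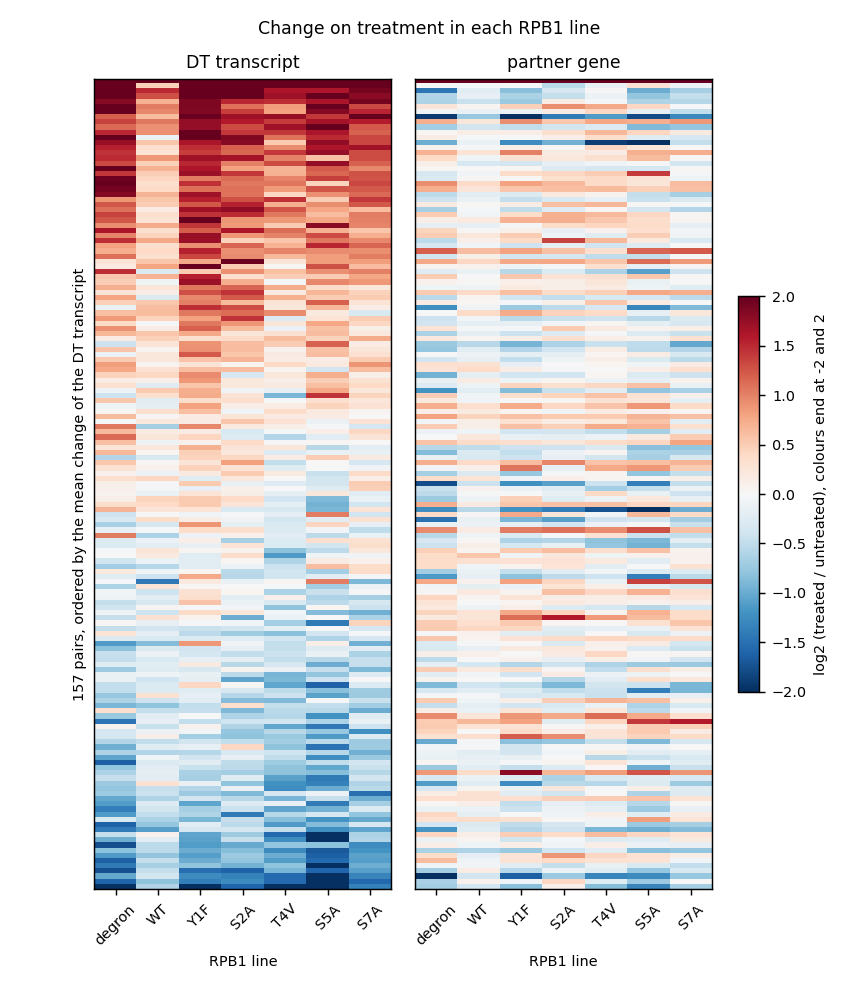
Log2 change on treatment (colour, TMM scaling, ending at -2 and 2) of the 157 DT transcripts (left) and of their partner genes in the same order (right), 1 column per RPB1 line; pairs are ordered by the mean change of the DT transcript. Most DT transcripts keep 1 colour from line to line, paler in WT, while the partners beside them show no such order; other library scalings shift each column as a whole.

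The members that rose in 5 or more lines were low in untreated cells, with a median of 2.48 TPM or 6.75% of their partner, and 22 of the 33 reached 280 reads in both states. The untreated level is the base of the change by which these members were chosen, so a low one is in part a result of the choice. Summed over both states, their reads had a median of 1438, near the 1384 of all members. Their median log2 change was 1.69 in Y1F, 1.49 in S5A, 1.49 in the degron line, 1.28 in S7A, 1.27 in S2A and 0.99 in T4V, and 0.50 in WT, where 31 of 33 estimates were above 0 and 10 were called. The partners of these 33 had medians between -0.04 and 0.32. Of the partners, 5 rose in 5 or more lines and 4 fell in 5 or more. In 11 members, all 14 treated libraries lay above all 14 untreated ones, as in 3.12% of all genes tested.

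ISL1-DT (chr5:51372736-51383332, 3 exons, no exon overlap) starts beside ISL1, a LIM homeodomain transcription factor of motor neurons and other lineages. It stood at 2.20 to 4.21 CPM in the 14 untreated libraries (median 3.07) and at 5.44 to 15.1 in the treated ones (median 9.47), so that the states did not overlap. In Y1F it went from 4.08 and 4.21 to 15.1 and 15 CPM (log2 change 1.86, SE 0.17, edgeR adjusted p = 3.9e-08). It rose in all 7 lines, in WT by 0.70 (SE 0.18, edgeR adjusted p = 0.027), a call lost without the second untreated or either treated WT library (0.49, 0.60 and 0.81). ISL1 itself fell in 5 lines, in Y1F from 35.0 and 42.6 to 23.5 and 22.6 CPM.

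INSIG1-DT (chr7:155295918-155297541, 1 exon) starts 235 bases from INSIG1, which retains the sterol sensor complex in the endoplasmic reticulum. Its CPM in the degron line were 6.24 and 4.57 untreated and 11.3 and 13.8 treated (log2 change 1.2, SE 0.22, edgeR adjusted p = 0.00013). In Y1F it went from 2.53 and 2.32 to 9.08 and 10.1 CPM, a log2 change of 1.97 (SE 0.26, edgeR adjusted p = 3.3e-06). INSIG1 itself fell in all 7 lines. In the degron line INSIG1 dropped from a mean of 261 CPM (SD 16.2, n = 2) to 74.5 and 63.8 CPM, and in Y1F from 173.0 and 212.0 to 51.2 and 45.8 CPM (log2 change -1.99, SE 0.13, edgeR adjusted p = 4.2e-10). INSIG1-DT rose in 6 lines. In WT it had 3.77 and 3.19 CPM untreated and 3.89 and 6.81 treated, a change of 0.63 (SE 0.25, edgeR adjusted p = 0.16).

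GOLPH3-DT (chr5:32174471-32175272, 1 exon, 121 bases from GOLPH3) was low in untreated cells, at 0.629 to 1.66 CPM, and at 1.99 to 7.91 CPM in treated ones. In Y1F the 4 libraries read 0.816 and 0.688, then 6.26 and 6.66 CPM (log2 change 3.08, SE 0.36, edgeR adjusted p = 8.6e-07). It rose in all 7 lines, and in WT, with 0.629 and 0.972 against 1.99 and 2.48 CPM, the change of 1.49 (SE 0.40, edgeR adjusted p = 0.033) lost its call without either untreated or the second treated library (1.2, 1.82 and 1.32). USP34-DT, beside the deubiquitinase gene USP34, behaved alike in its levels: 0.318 to 1.2 CPM in untreated and 2.00 to 6.52 CPM in treated libraries. Its exons overlap 494 bases of a gene on the other strand. GOLPH3-DT and USP34-DT both had few untreated reads, so the treated state did much to bring them over the read threshold. The gap between their states is thus in part a result of the choice of members. OSER1-DT, beside an oxidative stress responsive gene, was better covered, with 3.96 to 7.45 CPM untreated and 8.94 to 21.7 treated. Its log2 change was 2.05 in Y1F (SE 0.18, edgeR adjusted p = 2e-08) and 0.91 in WT (SE 0.19, edgeR adjusted p = 0.0052, lost without either untreated WT library at 0.94 and 0.88).

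NUP50-DT (chr22:45133020-45163781, 4 exons) rose in all 7 lines beside NUP50, a nuclear pore protein. It had 4.14 to 9.81 CPM in untreated and 11.0 to 23.5 CPM in treated libraries. In S2A it went from 4.74 and 4.14 to 13.9 and 11.9 CPM, a log2 change of 1.54 (SE 0.15, edgeR adjusted p = 1.1e-07), and NUP50 also rose there, by 0.60. With the authors' factors the NUP50-DT change in S5A turned from 0.93 to -0.03, and the call was made in 1 line only. ACAD9-DT, PCMTD1-DT, WDR35-DT, MICB-DT and ST8SIA5-DT completed the 10 members that rose in all 7 lines. By DESeq2, PCMTD1-DT, OSER1-DT, GOLPH3-DT and ST8SIA5-DT rose in all 7 and the others of the 10 in 6. The WT calls of these members rest on single WT libraries, as given above for WT. With the authors' factors ACAD9-DT rose in 2, PCMTD1-DT in 3, WDR35-DT in 4 and MICB-DT in 3 lines. MICB, a ligand of the NKG2D receptor, rose in 6 lines.

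ZNF516-DT (chr18:76495521-76498088, 2 exons, 331 bases from the zinc finger gene ZNF516) rose in 6 lines. In Y1F it went from 0.245 and 0.258 CPM to 6.21 and 4.69 CPM (log2 change 4.41, SE 0.33, edgeR adjusted p = 1.7e-09), and in the degron line from 0.266 and 0.721 to 3.61 and 4.28 CPM (3.04, SE 0.29, edgeR adjusted p = 4.1e-08). Of its reads, 99 came from untreated and 632 from treated libraries, so the treated state carried it over the threshold. ZNF516 stayed between 21.4 and 46.1 CPM in the treated libraries and between 28.7 and 42.8 in the untreated ones, and fell in S2A only (-0.54, SE 0.13, edgeR adjusted p = 0.0033). ST8SIA5-DT, with 61 untreated and 544 treated reads, rose together with the sialyltransferase gene ST8SIA5, which rose in all 7 lines. In S5A the transcript went from 0.189 and 0 to 4.53 and 4.74 CPM. The pair shares 432 exonic bases, over which reads cannot be assigned without strand.

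**Figure D3:**
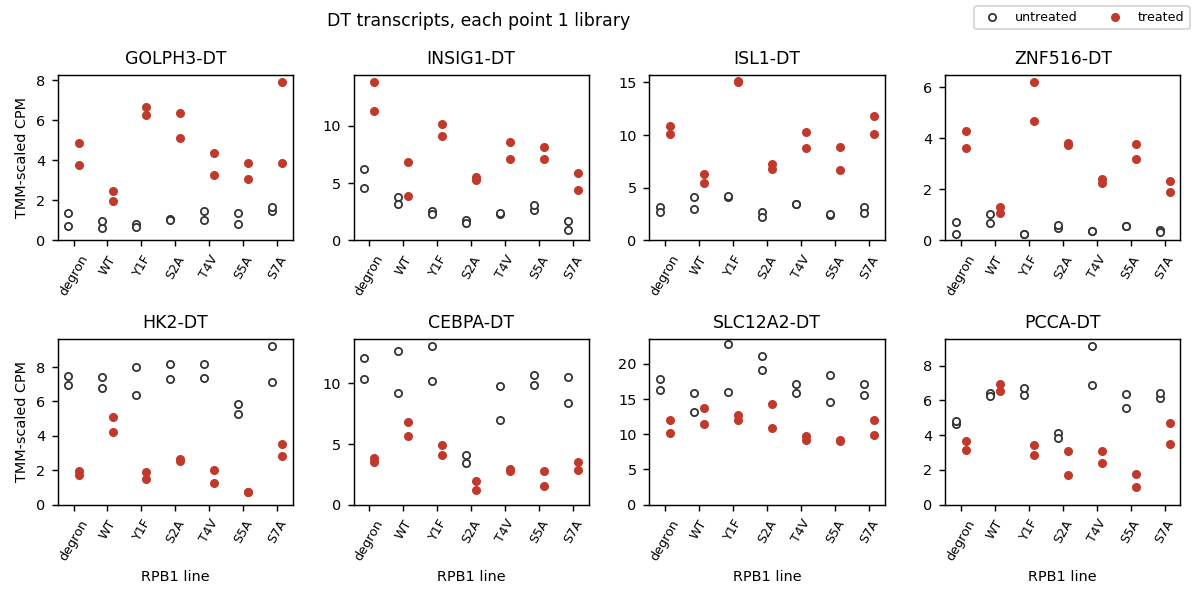
TMM-scaled CPM (y axis, from 0) of 8 DT transcripts in every treated (filled) and untreated (open) library of the 7 RPB1 lines (x axis). Treated ISL1-DT lies at 5.44 CPM or more and untreated at 4.21 or less; HK2-DT is at 5.25 or more untreated and at 5.09 or less treated; ZNF516-DT reaches 6.21 CPM in Y1F and 1.31 in WT.

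The 16 members that fell in 5 or more lines were higher in untreated cells, with a median of 10.8 TPM or 25% of their partner, and 15 of them reached 280 reads in both states. A high untreated level is likewise in part a result of the choice, though these members also had more reads over both states, with a median sum of 3607. Their median log2 change was -1.56 in S5A, -1.05 in the degron line, -1.03 in S7A, -0.99 in Y1F, -0.93 in T4V, -0.76 in S2A and -0.49 in WT, where 6 were called and 1 estimate was above 0. Their partners had medians from -0.37 to 0.05. In 5 members all 14 treated libraries lay below all 14 untreated ones, as in 1.07% of all genes: RNASEH1-DT, MOCS2-DT, UBA6-DT, HK2-DT and ZMPSTE24-DT. TMCC1-DT, RNASEH1-DT, MOCS2-DT, UBA6-DT and CEBPA-DT fell in all 7 lines, and did so under the mitochondrial scaling and the authors' factors too. The WT calls of all 5 were lost on leaving out single WT libraries. Both alternative scalings lower the changes of all genes in every line, so falls kept under them are no check on the calls.

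HK2-DT (chr2:74832655-74833987, 1 exon) starts beside HK2, a hexokinase that commits glucose to glycolysis. In GENCODE release 29 the annotated exons of HK2-DT and HK2 share 7 bases, while the RefSeq starts have 139 bases between them. HK2-DT read 5.25 to 9.22 CPM in untreated and 0.741 to 5.09 in treated libraries. In S5A HK2-DT dropped from 5.86 and 5.25 to 0.756 and 0.741 CPM (log2 change -2.88, SE 0.26, edgeR adjusted p = 1.2e-08), while HK2 went from 93.3 and 94.7 to 35.4 and 40.1 CPM (-1.32, SE 0.11, edgeR adjusted p = 4.5e-09). In S2A HK2-DT fell by 1.58 and HK2 did not pass the test, with 148.0 and 148.0 CPM before and 160.0 and 156.0 after. The treated WT libraries had 4.23 and 5.09 CPM of HK2-DT against 6.79 and 7.43, a change of -0.60 that missed the threshold (SE 0.18, edgeR adjusted p = 0.055).

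CEBPA-DT (chr19:33302857-33305054, 1 exon) lies 293 bases from CEBPA, a transcription factor of myeloid, liver and fat cells. In S5A it went from 10.7 and 9.87 to 1.51 and 2.74 CPM (log2 change -2.25, SE 0.25, edgeR adjusted p = 3.3e-07). CEBPA fell in 2 lines, the degron line and S5A, and in WT it had 21.1 and 19.9 CPM untreated and 17.8 and 25.5 treated. MOCS2-DT, beside a gene of molybdenum cofactor synthesis, fell most in S5A as well, from 12.4 and 13 to 2.35 and 2.52 CPM (-2.37, SE 0.17, edgeR adjusted p = 7.7e-10). UBA6-DT, beside a ubiquitin-activating enzyme, fell most in the degron line, from 11.5 and 12.1 to 3.61 and 3.35 CPM (-1.76, SE 0.15, edgeR adjusted p = 9.8e-09). UBA6 passed the test in 0 of 7 lines and its median was 103.0 CPM in both states. RNASEH1-DT, beside the gene of the RNase that cuts RNA in RNA-DNA hybrids, had 10.7 to 15 CPM in untreated and 2.85 to 10.1 in treated libraries.

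The change of a DT transcript said little about that of its partner. Over 157 pairs Pearson's r was 0.25 in S5A, 0.24 in WT, 0.20 in T4V, 0.16 in S7A, 0.13 in the degron line, 0.10 in S2A and 0.09 in Y1F, for pairs whose genes share libraries and, in part, exons. In Y1F, of 64 risen DT transcripts 15 had a risen partner, 20 a fallen partner and 29 a partner that was not called, where of all 157 partners 22.3% rose and 27.4% fell. In S5A the 45 risen ones had 13 risen and 14 fallen partners, and the 47 fallen ones 11 risen and 19 fallen partners, where 24.2% of all partners rose and 33.8% fell. The ratio of a DT transcript to its partner within a library does not depend on how libraries are scaled. It was higher after treatment in 66 pairs and lower in 25 in Y1F, called at an adjusted p under 0.05 among 2223 pairs of neighbouring genes, of which 54.4% were called. The counts of higher and lower ratios were 59 and 39 in the degron line (51.2% of all pairs called), 46 and 22 in S2A (43.4%), 22 and 40 in T4V (36.5%), 48 and 40 in S5A (53.7%), 47 and 32 in S7A (40.6%) and 13 and 8 in WT (11.4%). The WT total of both directions was 5, 9 and 8 without the first untreated, the second untreated and the second treated WT library. The median log2 change of the ratio was 0.36 in Y1F and 0.20 in S7A, between -0.01 and 0.13 in the degron line, WT, S2A and S5A, and -0.14 in T4V. Over the 129 members at 280 reads or more in both states it was 0.20 in Y1F, 0.03 in S7A and -0.26 in T4V.

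Other divergent pairs served as a comparison. In 640 pairs of another noncoding gene and a coding gene with starts within 1000 bases head to head, the median log2 change of the noncoding to coding ratio was 0.78 in Y1F, 0.48 in S2A, 0.41 in the degron line, 0.39 in S5A, 0.39 in S7A, 0.17 in WT and 0.05 in T4V. In these pairs 44.7% of the Y1F ratios were higher and 8.59% lower. In the 205 tested pairs of DT genes below the read threshold the Y1F median was 1.11. The noncoding genes of the 640 pairs had no read threshold either, and low genes can pass the filter through the state in which they are high. The medians of both kinds of pairs are therefore not a like measure for the DT set. In 1157 pairs of coding genes the medians were 0 to 0.06, with an alphabetical order of the genes that fixes no direction. T4V had the lowest median in the DT set and in the 640 noncoding pairs.

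**Figure D4:**
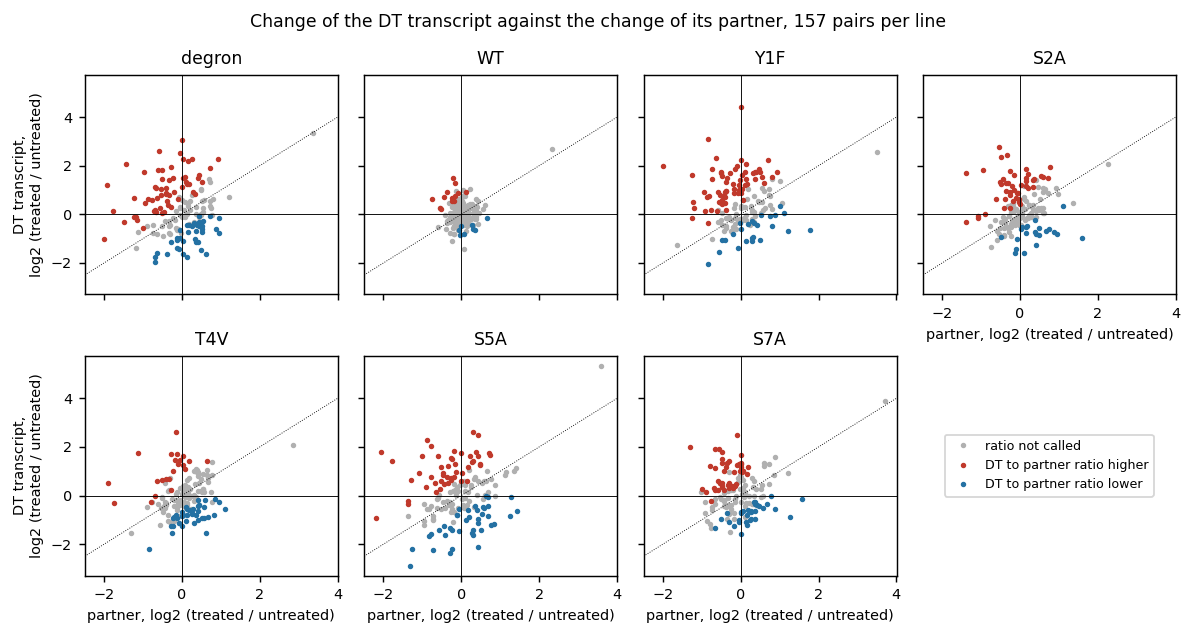
Log2 change of the DT transcript (y axis) against that of its partner (x axis) for 157 pairs in each RPB1 line, TMM scaling; red and blue points are pairs whose DT to partner ratio was called higher or lower, and the dotted line marks equal change. Pearson's r lies between 0.09 in Y1F and 0.25 in S5A; WT has 13 red and 8 blue points.

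Some pairs were called in opposite directions. INSIG1 and SLC12A2 were so in 6 lines each, ISL1 and USP34 in 5 each. The INSIG1-DT to INSIG1 ratio rose by 3.95 on the log2 scale in Y1F (SE 0.30, edgeR adjusted p = 4.9e-11) and by 3.12 in the degron line (SE 0.25, edgeR adjusted p = 1.6e-10). Its rise of 1.41 in WT (SE 0.31, edgeR adjusted p = 0.0033) was lost without the second treated library, at 0.76. For GOLPH3 the ratio rose by 3.89 in Y1F (SE 0.36, edgeR adjusted p = 6.1e-10).

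SLC12A2-DT moved against its partner the other way. SLC12A2 encodes a sodium, potassium and chloride cotransporter, and in Y1F it went from 45.8 and 54.6 to 188.0 and 158.0 CPM (log2 change 1.79, SE 0.17, edgeR adjusted p = 3.5e-08). SLC12A2-DT, with 12 exon blocks of which 39 bases overlap a gene on the other strand, had 16.0 and 22.9 CPM before and 12.0 and 12.8 after (-0.65, SE 0.17, edgeR adjusted p = 0.004), a call lost without the second untreated Y1F library (-0.37). PCCA-DT fell and PCCA, a subunit of the mitochondrial propionyl-CoA carboxylase, rose in 4 lines. In T4V PCCA-DT dropped from 9.14 and 6.90 to 3.09 and 2.40 CPM, PCCA went from 17.8 and 20 to 30.3 and 27.4 CPM, and the log2 ratio fell by 2.17 (SE 0.25, edgeR adjusted p = 7.4e-08). TRMT61A-DT, beside a tRNA methyltransferase gene, rose in S5A from 4.03 and 3.74 to 12.8 and 14 CPM as TRMT61A fell from 40.0 and 37.7 to 9.32 and 9.19 CPM. TFIP11-DT fell in 6 lines while TFIP11, a factor of spliceosome disassembly, rose in 5. The opposite call was made in 4 lines for MRPL20, NIPBL, RAB30 and WDR35 as well. BAIAP2-DT, the second most abundant member, fell in Y1F from 36.9 and 31.0 to 19.5 and 22.9 CPM as BAIAP2 rose from 28.8 and 23.0 to 56.9 and 63.5 CPM.

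The mutant lines were then set against WT, asking whether the change on treatment differed. In Y1F 21 members changed more in the upward direction than in WT and 3 more in the downward (all genes 3.42% and 6.31%). S2A had 9 and 3 (2.87% and 4.66%), T4V 2 and 4 (1.36% and 2.35%), S5A 13 and 26 (6.4% and 11.7%) and S7A 2 and 0 (0.325% and 0.495%). The median difference over the 157 members was 0.35 in Y1F and 0.15 in S2A, and it lay between -0.14 and 0.06 in T4V, S5A and S7A. The read threshold bears on these counts and medians too: 22 members reached 280 reads only when treated and 6 only when untreated. WDR11-DT, with 260 untreated and 308 treated reads, is among the 21 of Y1F. The comparison with WT was not repeated over the 129 members that reached 280 reads in both states. Apart from S5A, whose total of both directions was 26 to 44 on leaving out single libraries, these totals rest on single libraries. The Y1F total of both directions went to between 11 and 14 without either untreated or the second treated WT library, or without either untreated or the first treated Y1F library. The S2A total went to between 3 and 7 without either untreated or the second treated WT library or any 1 of the 4 S2A libraries. The T4V total went to 2 or 3 without either untreated WT library, the first untreated or either treated T4V library, and to 11 without the first treated WT library. In S7A 0 or 1 was left without the first untreated WT library, either untreated or the first treated S7A library.

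ZNF516-DT went further up than in WT in Y1F (difference 3.93, SE 0.51, edgeR adjusted p = 4.6e-05), S2A (2.28, SE 0.45, edgeR adjusted p = 0.0033), T4V (2.13, SE 0.48, edgeR adjusted p = 0.017) and S5A (2.14, SE 0.45, edgeR adjusted p = 0.0022). Its WT libraries read 0.692 and 1.04 CPM untreated and 1.08 and 1.31 treated. The S2A and T4V calls were lost without the second untreated WT library, at 1.98 and 1.82, and the T4V call also without the first untreated, the first treated or the second treated T4V library, at 2.17, 2.08 and 2.18. MRPL20-DT, beside a gene of the mitochondrial ribosome, was higher than in WT in all 5 mutants, by 0.81 to 1.31. In WT it had 7.73 and 6.87 CPM untreated and 6.46 and 5.50 treated, and in S7A 5.14 and 4.97 CPM against 9.83 and 10.6. AP1AR-DT, at 0.24 to 1.60 CPM in untreated libraries, differed in Y1F (2.36, SE 0.55, edgeR adjusted p = 0.0091), where its CPM went from 0.653 and 0.43 to 2.92 and 2.14.

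The S5A line had the most members below WT. HK2-DT led these with a difference of -2.28 (SE 0.33, edgeR adjusted p = 5.6e-05), followed by PCCA-DT at -2.20 (SE 0.32, edgeR adjusted p = 7.7e-05), MTA1-DT at -1.97, KCNC4-DT at -1.84 and MOCS2-DT at -1.71. HK2-DT was also lower than in WT in Y1F (-1.45), S2A (-0.98) and T4V (-1.61). PCCA-DT in WT read 6.41 and 6.25 CPM untreated and 6.96 and 6.54 treated, in S5A 6.37 and 5.57 against 1.76 and 1.04. The largest upward difference called in S5A was that of PKD2L2-DT at 2.46 (SE 0.65, edgeR adjusted p = 0.012), which was lost without the second treated WT library, at 1.63. That library had 0.206 CPM of PKD2L2-DT and the first 1.08.

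**Figure D5:**
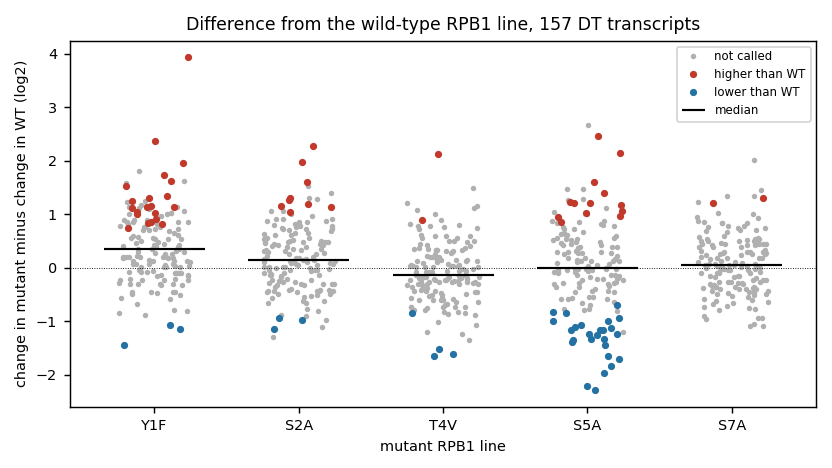
Change on treatment in a mutant line minus that in WT (log2, y axis) for the 157 DT transcripts, 1 point each, in the 5 mutant lines (x axis); coloured points were called and bars are medians. Y1F has 21 members higher and 3 lower than in WT, S5A 13 and 26, and S7A 2 and 0; the topmost Y1F point is ZNF516-DT at 3.93.

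Within the set, medians were also taken by structure. In Y1F the 38 members with a single exon had a median log2 change of 0.54 (18 rose, 4 fell) and the 116 with more exons 0.26 (44 rose, 16 fell). In S2A these medians were 0.46 and 0.05, in S7A 0.40 and -0.06, and in WT -0.12 and 0.05. Members whose exons overlap no other gene, 86 in all, had medians of 0.49 in Y1F and 0.32 in S2A, against 0.19 and -0.04 for the 68 that overlap one. These classes overlap, and no difference between them was tested.

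The machinery known to act on upstream transcripts was read from 2 lists. Of 23 genes of the nuclear exosome and its adaptors, 0 rose and 12 fell in S5A, 0 and 12 in the degron line, 0 and 11 in S7A, 0 and 9 in Y1F, 1 and 8 in T4V, 1 and 7 in S2A, and 0 and 1 in WT, with list medians from -0.39 to -0.17. In the 6 lines other than WT 30.4% to 52.2% of the list fell, beside 14% to 24.2% of all genes, while 14.8% to 25.5% of all genes rose. EXOSC3, a cap subunit of the exosome, fell in all 7 lines, by 1.07 in Y1F, 1.57 in S5A and 0.41 in WT on the log2 scale. MTREX, the helicase that feeds the exosome, fell in the 6 lines other than WT, in which its change was -0.31. Of 21 genes for early termination, poly(A) sites and U1 snRNP, 3 rose and 12 fell in S5A, 2 and 9 in the degron line, 2 and 8 in Y1F, 1 and 7 in S7A, 1 and 7 in S2A, 4 and 6 in T4V, and 0 and 0 in WT (edgeR). In the 6 lines other than WT 28.6% to 57.1% of these genes fell and 4.76% to 19% rose, beside the shares of all genes just given; the 19% that rose in T4V is near the 14.8% of all genes there. SNRPA, the U1 A protein, fell by 1.86 in Y1F and 0.83 in T4V. The list also counts NRDE2, whose fall (by 1.71 in the degron line) is not read here as a loss of a termination factor. Other genes of this list went the other way or were not called. PCF11 rose in S2A (0.65), T4V (0.61), the degron line (0.37), Y1F (0.36) and S5A (0.35). SNRNP70 and SNRPC, also of U1 snRNP, were called in no line. The part of these changes in those of the DT transcripts was not tested.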

How the data were processed

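Poly(A) RNA from 30 libraries (15 groups of 2) was extracted with TRIzol and read from both ends at 150 bases, per the labels' protocols, which also state a spike of 10% fly S2 cells; no fly genes were used here. The deposited counts are whole reads for each gene. The submitters' processing notes name featureCounts 2.0.1, STAR 2.7.3a and Trim Galore 0.6.2, with builds dm6 and hg38, as tools of the authors. No source used here gives the annotation, the strand setting or the treatment of multimapping reads. Levels of different genes were compared by the deposited TPM. The authors' deposited comparison tables hold a base mean (a signal: the mean count over library factors), log2 fold changes and p-values, for which the notes name DESeq2 1.24.0; only the library factors, solved from the base means, served here, as an alternative scaling.

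Members, lists, named genes and tests were chosen with earlier results of these data known. Counts were tested with edgeR 4.0.16 (robust quasi-likelihood, TMM, 1 coefficient per group over 30 libraries, 15 residual degrees of freedom), which kept 19982 genes by filterByExpr (minimum count 10, total 15) and left out 41596. Benjamini-Hochberg adjustment ran over all genes of a comparison, with calls at an adjusted p under 0.05. DT to partner ratios were tested with edgeR over 2223 pairs, with 1 coefficient per library, adjusted over all pairs. Scripts were tested on simulated data. Genes were named when called in 1 direction in 5 or more lines, with the largest changes, ratios or differences from WT per line, in opposite directions to the partner in 3 or more lines, or by abundance. MTA1-DT, KCNC4-DT, LHX1-DT, CTTN-DT, CHD1-DT, PCF11, SNRNP70 and SNRPC were picked as examples after their values were seen. Alternatives were mitochondrial mRNA scaling, DESeq2 1.42.0, no filter, each line's own libraries, a replicate block, the authors' factors, limma 3.58.1 for ratios and leaving out each library. Added after seeing the data were members at 280 reads or more in both states, a crossed block and the ratios of named pairs under each alternative.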

Additional observations from a re-analysis of the deposited data

Results flagged for a closer look

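In the tests of a mutant's change on treatment against that of WT, these members had the largest called differences (log2, edgeR, Benjamini-Hochberg adjusted p over all genes). Their explanation was not tested. In Y1F, ZNF516-DT differed from WT by 3.93 (SE 0.51, adjusted p = 4.6e-05) and AP1AR-DT by 2.36 (SE 0.55, adjusted p = 0.0091, with 2.05 and no call without the second untreated WT library and 2.08 and no call without the first treated Y1F library). In S2A, ZNF516-DT differed by 2.28 (SE 0.45, adjusted p = 0.0033) and AP1AR-DT by 1.98 (SE 0.50, adjusted p = 0.02). The S2A call of AP1AR-DT was lost without the second untreated or second treated WT library, or without the second untreated or first treated S2A library, at 1.67, 1.60, 1.55 and 1.94, and that of ZNF516-DT without the second untreated WT library, at 1.98. In T4V, ZNF516-DT differed by 2.13 (SE 0.48, adjusted p = 0.017, with the libraries named above) and PCCA-DT by -1.65 (SE 0.30, adjusted p = 0.0042). In S5A, PKD2L2-DT differed by 2.46 (SE 0.65, adjusted p = 0.012), which was 1.63 and not called without the second treated WT library, and HK2-DT by -2.28 (SE 0.33, adjusted p = 5.6e-05). In S7A, MRPL20-DT differed by 1.31 (SE 0.24, adjusted p = 0.013), lost without the first untreated WT library at 1.22 or the first untreated S7A library at 1.33, and ISL1-DT by 1.21 (SE 0.26, adjusted p = 0.029). The ISL1-DT call was lost without the first untreated or second treated WT library, or without either untreated or the first treated S7A library, with values from 0.95 to 1.35.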

How the results depend on the processing

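Of 4788 recomputed values for 487 named changes and ratios, 4220 kept their direction and their side of the threshold, 500 kept the direction and lost the call, 32 gained one and 36 changed sign; the cause was not tested. Risen and fallen counts with mitochondrial scaling were 45 and 40 in Y1F, 20 and 86 in S5A, 30 and 68 in the degron line, 27 and 57 in S2A, 26 and 56 in S7A, 10 and 85 in T4V and 3 and 16 in WT. With the authors' factors they were 27 and 70, 12 and 92, 18 and 84, 23 and 60, 7 and 85, 10 and 66, and 1 and 10. With each line's own 4 libraries, which leaves 2 residual degrees of freedom a line, WT had 0 risen and 0 fallen members by edgeR, T4V 17 and 24, and S7A 17 fallen. WT had 5 risen without a count filter and 5 with DESeq2. The members differing from WT numbered 12 in Y1F with mitochondrial scaling and 5 with own libraries, 3 in S2A with own libraries, 18 in T4V with mitochondrial scaling and 0 with own libraries, and in S7A 1 with mitochondrial scaling, 1 without a filter and 0 with own libraries. The WT ratio calls were 7 with own libraries and 12 with limma. Among members with 280 reads or more in both states, 6 rose in WT and 19 in T4V.

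Leaving out each library in turn gave 50 to 57 risen and 16 to 18 fallen members in Y1F, 37 to 40 and 36 to 40 in S5A, 41 to 46 and 27 to 34 in the degron line, 35 to 44 and 17 to 20 in S2A, 28 to 34 and 20 to 27 in S7A, 18 to 27 and 22 to 29 in T4V, and 0 to 8 and 0 to 5 in WT. Members differing from WT ranged from 26 to 44 in S5A, 11 to 26 in Y1F, 3 to 14 in S2A, 2 to 11 in T4V and 0 to 3 in S7A. Ratio calls ranged from 71 to 82 in Y1F, 73 to 80 in S5A, 87 to 88 in the degron line, 54 to 60 in S2A, 56 to 75 in S7A, 44 to 58 in T4V and 5 to 17 in WT. In WT the risen count was 3 without the first untreated and 3 without the second treated library, and the fallen count 1 without the second untreated, 5 without the first treated and 1 without the second treated library.

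Signs that turned with the authors' factors were those of ZNF584-DT (-0.12), PCMTD1-DT (-0.38), NUP50-DT (-0.03), KCTD13-DT (-0.01), MRPL20-DT (-0.05), TMED2-DT (-0.34), TMEM167B-DT (-0.04), EIF2AK3-DT (-0.18), AKAP1-DT (-0.46) and TAF12-DT (-0.50) in S5A, CD2BP2-DT (-0.05) and KCTD13-DT (-0.14) in the degron line, MRPL20-DT in Y1F (-0.36), TMEM167B-DT in T4V (-0.04), EPM2A-DT in S7A (-0.10) and PCCA-DT in WT (-0.15). With mitochondrial scaling they were PCMTD1-DT (-0.17), TMED2-DT (-0.13), AKAP1-DT (-0.25) and TAF12-DT (-0.29) in S5A, TRMT61A-DT (-0.05), TMEM167B-DT (-0.15) and MAP3K2-DT (-0.07) in T4V, and PCCA-DT in WT (-0.13). Leaving out single WT libraries gave WT changes from -0.16 to 0 for EIF3J-DT, -0.10 to 0.69 for TMED2-DT, -0.09 to 0.59 for EIF2AK3-DT, 0 to 0.75 for MARCHF6-DT, -0.56 to 0.25 for AP1AR-DT (0.18 without the second untreated library), -0.42 to 0.76 for TAF12-DT and -0.06 to 0.66 for MRNIP-DT. It gave WT ratios from -0.43 to 0.13 for MRPL20-DT, and of 0.01 and 0.08 for PCCA-DT without the first untreated and the first treated library. The Y1F ratio of FLVCR1-DT ran from -0.76 to 0.08, the latter without the first untreated library.

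Whether the replicate numbers pair the libraries is not settled by these data. Deviations of same-numbered libraries correlated at 0.44 in S7A, 0.06 in S2A and 0.02 in S5A. The correlation was -0.05 in T4V, -0.29 in WT, -0.34 in Y1F and -0.53 in the degron line. With the replicate block 64 members rose and 19 fell in Y1F, 46 and 46 in S5A, 49 and 37 in the degron line, 52 and 25 in S2A, 36 and 32 in S7A, 29 and 34 in T4V and 11 and 9 in WT, and of the named results 3 lost their call and 1 gained one. With crossed numbers the counts were 50 and 38 in the degron line, 11 and 10 in WT, and 64 and 21 in Y1F. Members near 20 reads per library have wide errors, and 2 libraries per group limit every comparison.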
